A study of Mus musculus with 18 samples.

Results

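The 10 genes described here are common markers of fibroblasts and myofibroblasts: Dcn, Lum, Bgn, Fap, Thy1, Pdgfra, Pdgfrb, Acta2, Tagln and Pi16. They were taken by gene symbol from a list made for this purpose and not by their measured values, and all 10 were found among the 22137 genes of one deposited table and the 24778 genes of the other. The RNA came from liver metastases of MC38, a mouse colorectal cancer line, which had been given by injection into the spleen. Tumours were sequenced from wild-type mice fed a low-fat diet (LFD, n = 5) or a high-fat diet (HFD, n = 5), with the genotype given as WT. A separate table held tumours of high-fat-fed wild-type mice whose genotype is given as a control hairpin (shCon, n = 4) or a hairpin against Yap (shYap, n = 4). Neither age, time, sex, the way the hairpin was delivered nor whether its line was 1 clone is in the labels, and nothing there says that each library was a different mouse. The p-values therefore measure the spread between these samples, which may be technical.

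Fibroblasts lay down and remodel the matrix of connective tissue, and in tumours they are often activated. Myofibroblasts are the contractile form, and their actin and actin-binding genes are driven by serum response factor. In injured liver such cells can arise from hepatic stellate cells, from portal fibroblasts or from the mesothelium. Most of the 10 genes are not confined to these cells: Thy1 is also found on mouse T cells, Acta2 and Tagln on smooth muscle and pericytes, and tumour cells of mesenchymal character can express several of them. These are bulk samples, so fewer cells of a type cannot be told apart from less RNA per cell, and the cells that carried each RNA are not known.

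The libraries held 17207214 to 21309950 estimated counts each. Yap1 was at 73.8 to 82.4 CPM (counts scaled to library size, here with trimmed-mean factors, TMM) in shCon and at 70.5 to 81.4 CPM in shYap (log2 fold change -0.04 ± 0.11 SE, edgeR, adjusted p = 0.937). A lower level of the targeted RNA was thus not detected in the libraries labelled shYap, and each direction given for that group below refers to the label. The groups of the diet comparison differed in more than diet. Xist, which is transcribed from the silenced X chromosome, was at 72.9 to 135 CPM in LFD and 0.0505 to 0.293 CPM in HFD, so whatever sets this RNA apart, such as animal sex, and diet cannot be told apart. Xist was at 0 to 0.1 CPM in shCon and at 0 to 0.203 CPM in shYap. Hepatocyte markers (9 of 10 in the table) summed to 10346 to 94018 CPM in LFD and 518 to 4264 CPM in HFD, with the highest sum in LFD replicate 5. In shCon and shYap the same sums were 10639 to 37001 and 13303 to 67386 CPM. The 2 tables were quantified separately, and no test was made between them.

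Per kilobase of exon, the markers spanned a wide range of levels. Bgn, which encodes the proteoglycan biglycan, was highest in each of the 4 groups, at 241 ± 67.1 CPM per kilobase in LFD and 397 ± 18.6 with the high-fat diet (SD, n = 5 per group). Dcn followed in each group, at 51.6 ± 11.2 in LFD and 112 ± 20.6 CPM per kilobase in HFD. Fap, the membrane protease that often marks activated fibroblasts of tumours, was at only 0.722 ± 0.285 in LFD and 0.424 ± 0.158 CPM per kilobase in HFD. In HFD the order from high to low was Bgn, Dcn, Lum, Pdgfrb, Acta2, Pdgfra, Tagln, Thy1, Pi16 and Fap. There the libraries' ranges of neighbours overlapped only for Acta2 with Pdgfra and Pdgfra with Tagln. In LFD the range of Lum (4.51 to 41.4) took in those of Pdgfrb, Acta2, Tagln and Pdgfra and reached that of Dcn, and Fap (0.23 to 0.934) stood above Pi16 (0.173 to 0.55) on average with overlapping ranges. In shCon and shYap Fap and Pi16 likewise overlapped at the bottom of the order, at 0.585 ± 0.145 and 0.432 ± 0.142 CPM per kilobase in shCon (SD, n = 4 each).

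The first comparison asks how the markers differed between tumours of high-fat-fed and low-fat-fed mice. Pi16, Dcn, Bgn and Pdgfrb were higher in HFD, and no marker was called lower. The largest difference was that of Pi16, whose mean rose 9.14-fold, from 1.68 ± 1.03 to 15.3 ± 4.87 CPM (SD, n = 5 each). The contractile genes Acta2 and Tagln, and Lum, Fap, Thy1 and Pdgfra, did not pass. In edgeR's quasi-likelihood test, with Benjamini-Hochberg adjustment and a threshold of 0.05, 4 of the 10 markers were called higher. Over all 16340 genes tested 19.4% were called higher and 21.6% lower. The median log2 fold change was 0.48 over the 10 markers and -0.002 over all genes tested. For the same 4 markers the lowest HFD library exceeded the highest LFD library, a separation that 15.8% of all genes tested showed in that direction.

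**Figure D1:**
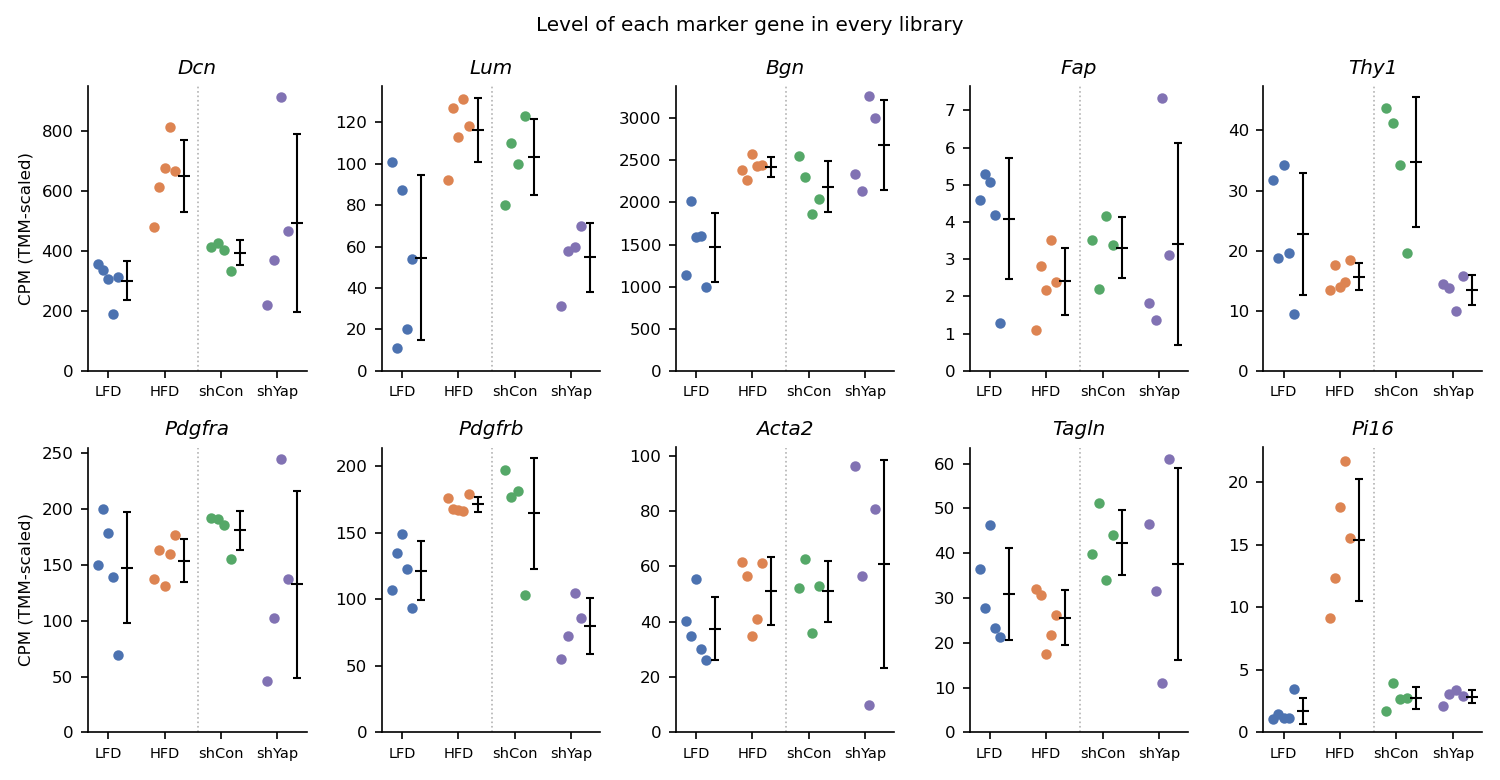
CPM (vertical axes, linear and starting at 0, each gene on its own scale) of the 10 markers in every library, by group; points are libraries and the black bars are the mean ± SD of the group. The dotted line parts the 2 tables, which were scaled separately; Pi16 lies at 9.17 to 21.7 CPM in HFD and at or below 3.91 CPM in the libraries of the other groups.

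**Figure D2:**
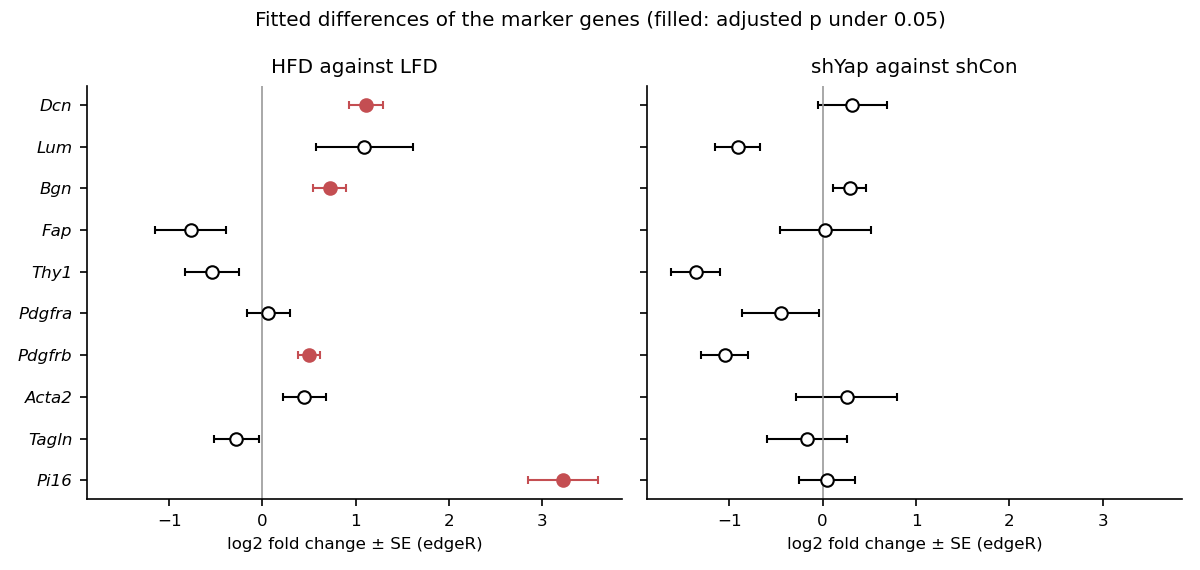
Log2 fold change with its SE (horizontal axis) of each marker in edgeR for HFD against LFD (left) and shYap against shCon (right); filled red points passed an adjusted p of 0.05. The 4 filled points on the left are Dcn, Bgn, Pdgfrb and Pi16, and no point on the right is filled.

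In the comparison of hairpins, no marker was called in either direction. Thy1, Pdgfrb and Lum had the lowest p-values of the 10, and their means in shYap were 0.388, 0.484 and 0.531 times those in shCon. In edgeR 0 of the 10 markers and 0 of 16571 genes (0%) passed, while 1804 genes had an unadjusted p under 0.05. DESeq2 called 123 genes higher and 282 lower, among them Thy1, Pdgfrb and Lum as lower, and limma voom called 0 in either direction. The median log2 fold change was -0.07 over the 10 markers and 0.027 over all genes. Without shCon replicate 4 edgeR called 17 genes higher and 77 lower, Thy1 among the latter.

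Dcn, Lum and Bgn encode decorin, lumican and biglycan, small leucine-rich proteoglycans of the collagen matrix. Decorin and lumican regulate the growth of collagen fibrils, and decorin and biglycan bind TGF-beta. Dcn lies on chromosome 10 from 97479609 to 97518143 and Lum downstream of it from 97565128 to 97572703, both on the plus strand, and Bgn on chromosome X from 73483602 to 73495933, plus strand (GRCm38, here and below, all protein-coding). Dcn was at 357, 338, 308, 189 and 314 CPM in LFD replicates 1 to 5. In HFD replicates 1 to 5 it was at 482, 613, 679, 813 and 668 CPM. The groups did not overlap, and the log2 fold change was 1.11 ± 0.18 SE (edgeR, adjusted p = 0.00149). When the mean hepatocyte level, which itself differs between these groups, entered the fit as covariate, Dcn was at 1.0 ± 0.40 (adjusted p = 0.145).

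Bgn, the most abundant of the 10, was at 1135, 2021, 1589, 1603 and 999 CPM in LFD replicates 1 to 5. Its HFD libraries lay close together at 2382, 2265, 2580, 2430 and 2440 CPM. The groups did not overlap, with a log2 fold change of 0.72 ± 0.18 (edgeR, adjusted p = 0.00901). The lowest Bgn values were those of LFD replicates 5 and 1, and the hepatocyte sum was highest in replicate 5. The part of hepatocyte RNA in the Bgn values was not tested. The call was lost with the hepatocyte covariate (log2 fold change -0.03, adjusted p = 0.957). It also missed the threshold with the mean T cell level as covariate (adjusted p = 0.0645), and with the closest HFD libraries, replicates 1 and 2 and replicates 3 and 4, summed (adjusted p = 0.0517).

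Lum varied most in LFD, at 101, 11.0, 87.3, 20.0 and 54.1 CPM in replicates 1 to 5. HFD held 92.1, 127, 113, 131 and 118 CPM. LFD replicate 1 reached into the HFD range and the log2 fold change of 1.09 ± 0.52 did not pass (edgeR, adjusted p = 0.123), while limma voom called Lum higher (1.56, adjusted p = 0.0478). Lum and its neighbour Dcn thus had similar fitted differences and unlike spreads. Their group-centred levels correlated with Pearson's r = 0.37 over the 10 LFD and HFD libraries (exact permutation within groups, p = 0.494; Spearman's rho = 0.44, p = 0.228). Without the 2 libraries farthest from the median of Dcn, r was -0.01.

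In the hairpin groups none of the same 3 proteoglycans passed in edgeR. Lum was at 79.9, 110, 100 and 123 CPM in the shCon libraries, and those labelled shYap held 31.2, 57.9, 59.9 and 70.1 CPM. These groups did not overlap, as in 3.96% of all genes tested in the lower direction, and the log2 fold change was -0.91 ± 0.24 (edgeR, adjusted p = 0.208). Dcn was at 413, 427, 405 and 335 CPM in shCon and at 221, 371, 915 and 468 CPM in shYap. The shYap libraries lay on both sides of the shCon range, and the log2 fold change was 0.32 ± 0.37, or -0.14 without shYap replicate 3. Bgn was at 1861 to 2552 CPM in shCon and 2131 to 3268 CPM in shYap (0.29 ± 0.18, adjusted p = 0.633).

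Other members of the proteoglycan family served as a comparison, 9 of 11 of which could be tested. In HFD against LFD Omd, which encodes osteomodulin, rose from 3.61 to 8.28 CPM (log2 fold change 1.20 ± 0.24). Kera, for keratocan, rose from 0.165 to 1.6 CPM (3.29 ± 0.48), and Fmod, for fibromodulin, fell (-0.64 ± 0.21; edgeR, adjusted p = 0.00365, 0.000884 and 0.033). Kera was near the floor in LFD, at 0.0518 to 0.327 CPM. The median of the 9 was 0.21, and 2 called higher and 1 lower stand against 19.4% and 21.6% of all genes. Aspn, for asporin, averaged 61.0 ± 24.5 CPM in HFD against 30.5 ± 23.6 in LFD (SD, n = 5 per group) and did not pass (adjusted p = 0.106). In the hairpin comparison none of the 9 passed, and Podn, for podocan, had the lowest p (log2 fold change -0.85, adjusted p = 0.357).

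Fap, on chromosome 2 from 62500943 to 62574075 (minus strand), encodes a serine protease of the cell surface that cleaves after proline. Its values were low, at 4.60, 5.29, 5.07, 4.19 and 1.30 CPM in LFD replicates 1 to 5 and 1.10, 2.83, 2.17, 3.52 and 2.40 CPM in HFD, from 16.0 to 102 estimated counts a library. LFD replicate 5 lay below most HFD libraries, and the other LFD libraries lay above all of them. The log2 fold change was -0.77 ± 0.38 (edgeR, adjusted p = 0.128). Without LFD replicate 5 Fap was called lower (-0.97 ± 0.28, adjusted p = 0.019). In shCon Fap was at 3.51, 2.19, 4.16 and 3.39 CPM and in shYap at 1.82, 1.36, 7.32 and 3.10 CPM, with a log2 fold change of 0.03 ± 0.49. Without shYap replicate 3, the highest, it was at -0.64 ± 0.35 (adjusted p = 0.437). Dpp4, the closest relative of Fap and a marker of some fibroblasts but also expressed by other cells, fell in HFD from 53.0 ± 48.1 to 4.72 ± 2.50 CPM (log2 fold change -3.48 ± 0.70, edgeR, adjusted p = 0.00403).

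Thy1 encodes CD90, a glycolipid-anchored surface protein of fibroblasts and, in mice, of T cells; it lies on chromosome 9 from 44043384 to 44048579 (plus strand). In LFD replicates 1 to 5 it was at 31.7, 18.8, 34.2, 19.6 and 9.52 CPM. The HFD libraries were at 13.4, 17.6, 14.0, 14.8 and 18.4 CPM. The groups overlapped only through LFD replicate 5, the lowest of all, and the log2 fold change was -0.54 ± 0.29 (edgeR, adjusted p = 0.165). Without that library Thy1 was called lower (-0.72 ± 0.20, adjusted p = 0.0174). With the mean level of the T cell list as covariate it was at 0.45 ± 0.42 (adjusted p = 0.477).

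Cd3e, a chain of the T cell receptor complex, was set beside Thy1. It was at 8.38, 4.87, 9.10, 6.18 and 2.60 CPM in LFD and at 0.598, 0.909, 2.37, 3.22 and 0.88 CPM in HFD. Cd3e was called lower in HFD, at -1.96 ± 0.50 (edgeR, adjusted p = 0.0108), and so were all 13 of the T cell list, whose summed level was 39.3 to 165 CPM in LFD and 17.4 to 59.3 CPM in HFD. None of the 13 genes was at 0 in all libraries of a group. Within each LFD library Thy1 stood in nearly the same ratio to Cd3e, with a log2 ratio of 1.59 to 1.86. In HFD that ratio was higher and more variable, at 2.04 to 3.78. The difference of the mean log2 ratios was 1.33 and no HFD library overlapped the LFD libraries (exact permutation test, two-sided: p = 0.00794, below which 5 against 5 cannot go; adjusted over 10 ratio tests, 0.0265; pseudocount 0.5 CPM). With a pseudocount of 2 CPM the difference was 0.80 (adjusted p = 0.0794). Leaving out any single library other than LFD replicate 5 gave an adjusted p of 0.0529 for each of the 3 ratios that passed (Thy1 to Cd3e, Thy1 to Dcn and Tagln to Acta2), 4 against 5 libraries allowing no exact p under 0.0159.

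**Figure D3:**
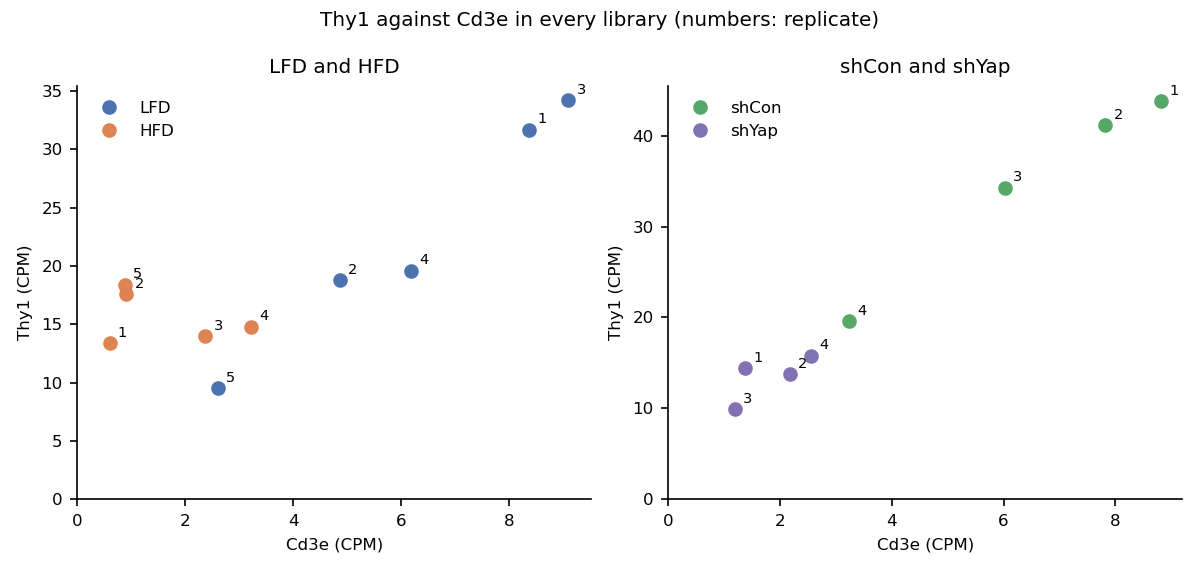
Thy1 (vertical axis, CPM) against Cd3e (horizontal axis, CPM) in each library, LFD and HFD on the left and shCon and shYap on the right, with replicate numbers beside the points. The LFD and shCon libraries line up with Cd3e, while HFD replicates 1, 2 and 5 hold 13.4 to 18.4 CPM of Thy1 at 0.598 to 0.909 CPM of Cd3e.

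In the shCon group Thy1 stood at 43.8, 41.2, 34.3 and 19.6 CPM, and Cd3e at 8.81, 7.82, 6.02 and 3.24 CPM. For shYap the values were 14.4, 13.8, 9.93 and 15.8 CPM for Thy1 and, for Cd3e, 1.37, 2.17, 1.19 and 2.56 CPM. For neither gene did the shYap and shCon libraries overlap, shYap being the lower, as in 3.96% of all genes tested. The log2 fold changes were -1.36 ± 0.26 for Thy1 and -1.82 ± 0.37 for Cd3e, and neither passed in edgeR (adjusted p = 0.153 and 0.158). DESeq2 called Thy1 lower (adjusted p = 0.000579), and edgeR did so without shCon replicate 4 (-1.56, adjusted p = 0.0309). The log2 ratio of Thy1 to Cd3e differed by 0.26 between these groups (exact permutation test, p = 0.143; adjusted over the 10 ratio tests, 0.204). Across the 8 libraries the group-centred levels of both genes had Pearson's r = 0.91 (exact permutation, p = 0.00694; adjusted over 8 pairs of genes and tables, 0.0185) and Spearman's rho = 0.90 (p = 0.0122, adjusted 0.0278), and r was 0.66 without the 2 libraries farthest in Thy1. In LFD and HFD r was 0.51 (exact permutation, p = 0.0849; adjusted, 0.113), rho was 0.42 (p = 0.231), and r was 0.09 without the 2 farthest.

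Pdgfra and Pdgfrb encode the receptor tyrosine kinases for platelet-derived growth factors, which drive growth and migration of fibroblasts and of pericytes and stellate cells. They lie on chromosome 5 from 75152292 to 75198215 and on chromosome 18 from 61045150 to 61085061, both on the plus strand. Pdgfrb was at 107, 135, 149, 123 and 93.4 CPM in LFD replicates 1 to 5. In HFD it was at 176, 168, 167, 166 and 179 CPM, a group with a coefficient of variation of 3.35%. No HFD library reached down to the LFD range, with a log2 fold change of 0.50 ± 0.12 (edgeR, adjusted p = 0.00769), which with the hepatocyte covariate was 0.16 (adjusted p = 0.664). Pdgfra was at 150, 200, 178, 139 and 69.7 CPM in LFD and at 137, 163, 131, 160 and 177 CPM in HFD. Its groups overlapped, with LFD replicates on both sides of the HFD range, and the log2 fold change was 0.06 ± 0.23, or -0.10 without LFD replicate 5. The log2 ratio of Pdgfra to Pdgfrb differed by -0.38 between HFD and LFD (exact permutation test, p = 0.0952; adjusted, 0.159), or by -0.54 without LFD replicate 5 (adjusted p = 0.0397).

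In the hairpin groups Pdgfrb was at 197, 177, 181 and 103 CPM in shCon and at 55.1, 72.5, 105 and 86.2 CPM in shYap. The groups overlapped only between shCon replicate 4 and shYap replicate 3, and the log2 fold change was -1.05 ± 0.25 (edgeR, adjusted p = 0.177; DESeq2, adjusted p = 0.0114). The summed level of the T cell genes was 54.3 to 136 CPM in shCon, lowest in replicate 4, and 23.6 to 37.6 CPM in shYap. Within shYap this sum and Pdgfrb were both lowest in replicate 1, but the sum was highest in replicate 2 and Pdgfrb in replicate 3. With the mean T cell level as covariate Pdgfrb was at 0.01 ± 0.45 and Thy1 at -0.17 ± 0.43, and that covariate itself separates the groups. The part of T cells in either difference was not tested. Pdgfra was at 192, 191, 186 and 155 CPM in shCon and 46.3, 102, 245 and 137 CPM in shYap, a log2 fold change of -0.45 ± 0.41 (adjusted p = 0.766), and -0.91 ± 0.32 without shYap replicate 3. The group-centred levels of both receptors correlated over these 8 libraries (r = 0.78, exact permutation p = 0.00521, adjusted 0.0185; rho = 0.86, p = 0.0139, adjusted 0.0278; r = 0.79 without the 2 libraries farthest in Pdgfra). In LFD and HFD r was 0.82 (exact permutation, p = 0.0363, adjusted 0.0581; rho = 0.66, p = 0.0842) and 0.52 without the 2 farthest.

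Of the 4 ligand genes of these receptors, Pdgfa rose in HFD, from 25.3 ± 5.13 to 53.0 ± 1.74 CPM (SD, n = 5 each; log2 fold change 1.07 ± 0.13, edgeR, adjusted p = 0.000339). Pdgfb, Pdgfc and Pdgfd had log2 fold changes of 0.26, 0.08 and -0.39 and did not pass. In shYap against shCon no ligand passed. Pdgfc was at 12.1 ± 1.22 CPM in shCon and 22.8 ± 6.12 in shYap (0.92 ± 0.21), and Pdgfb at 21.3 ± 4.77 and 13.8 ± 1.81 CPM (-0.62 ± 0.18; SD, n = 4 each; edgeR, adjusted p = 0.175 and 0.263). The groups of these 2 ligands did not overlap, in opposite directions, as in 2.61% (higher) and 3.96% (lower) of all genes tested.

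Acta2 encodes smooth muscle alpha-actin and Tagln the actin-binding protein transgelin, the usual myofibroblast pair. Acta2 lies on chromosome 19 from 34241090 to 34255590 and Tagln on chromosome 9 from 45929619 to 45936058, both on the minus strand. YAP has no DNA-binding domain of its own and acts through TEAD factors, and serum response factor binds the CArG box. The sites below are shown because the 250 bases before the RefSeq start of Acta2 hold matches to both motifs, and Acta2 is the marker most widely read as myofibroblast. Each is given 5′ to 3′ on the minus strand with its flanks (GRCm38.p6), and capitals mark GGAATG, the TEAD motif, or a CArG box with 1 C or G in its central A/T stretch.
Acta2 TEAD match, -146 to -141, chr19:34255502-34255531: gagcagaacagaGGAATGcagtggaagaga
Acta2 CArG box, -84 to -75, chr19:34255438-34255467: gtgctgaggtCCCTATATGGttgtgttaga
Acta2 CArG box, -34 to -25, chr19:34255388-34255417: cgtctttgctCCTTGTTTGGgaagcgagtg
Positions count back from the RefSeq start. GENCODE M21 begins the first exon of Acta2 farther upstream, and it covers 217 of the 250 bases. Exons of Pi16 in GENCODE M21 cover all 250 bases of the Pi16 window. Of 32851 promoter windows of this length, 12.6% held GGAATG on either strand, 7.24% a CArG box with 1 mismatch and 1.47% one without. Windows were read for 4 of the 10 genes, and those of Bgn, Pdgfra and Pi16 held none of these letters. The windows of the other markers were not read, so nothing is said about their motifs. A match does not show that a factor was bound.

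Acta2 was at 40.4, 34.9, 55.4, 30 and 26.2 CPM in LFD replicates 1 to 5 and at 61.4, 56.4, 34.8, 41.1 and 61.3 CPM in HFD. The ranges overlapped, and the log2 fold change was 0.45 ± 0.23 (edgeR, adjusted p = 0.137). Without LFD replicate 3, the highest of its group, Acta2 was called higher (0.64, adjusted p = 0.0328). Tagln was at 36.4, 27.7, 46.2, 23.3 and 21.4 CPM in LFD and at 32.1, 30.6, 17.4, 21.8 and 26.2 CPM in HFD. LFD replicates 1 and 3 lay above the HFD libraries and HFD replicate 3 below the LFD libraries, the others overlapping, with a log2 fold change of -0.28 ± 0.24 (adjusted p = 0.377).

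Inside each diet group the levels of both genes varied together over libraries. Their group-centred levels had r = 0.96 over the 10 libraries (exact permutation within groups, p = 0.000347, adjusted over 8 pairs 0.00278; rho = 0.95, p = 0.000417, adjusted 0.00334; r = 0.92 without the 2 libraries farthest in Acta2). Between the groups their ratio shifted. The log2 ratio of Tagln to Acta2 was -0.36 to -0.15 in LFD and -1.21 to -0.87 in HFD, a difference of -0.70 with no overlap (two-sided exact permutation test, p = 0.00794, again the lowest possible; 0.0265 after adjustment over the 10 ratio tests). Tagln shares 62.4% of its 1988 exon bases with Gm48529 on the other strand, which averaged 5.52 CPM in this table, and 5.43% with Pcsk7, also on the other strand, which averaged 30.4 CPM. All Tagln values were fractional, but so were most values of Dcn, Bgn and Pdgfrb, for which no shared exon bases were found. The sources used here do not give the library strand, so reads of these genes could have been divided between them, and the part of this in the ratio was not tested.

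**Figure D4:**
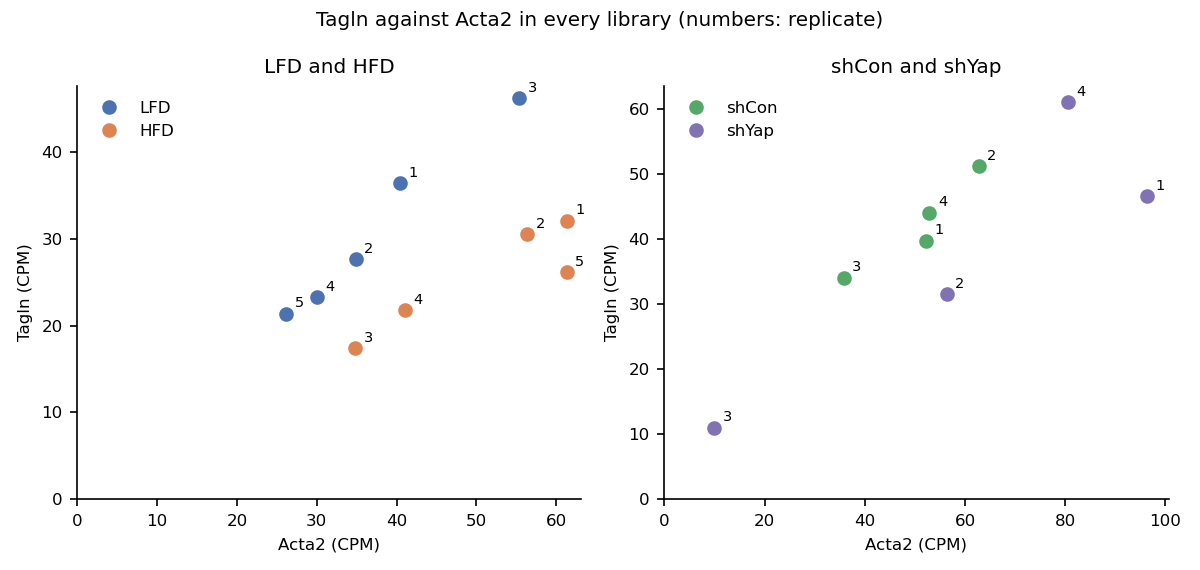
Tagln (vertical axis, CPM) against Acta2 (horizontal axis, CPM) in each library, LFD and HFD on the left and shCon and shYap on the right, with replicate numbers beside the points. The libraries of each diet group lie along a line of their own, the HFD line lower in Tagln, and shYap replicate 3 lies lowest on the right at 9.98 CPM of Acta2 and 11.0 CPM of Tagln.

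The shCon libraries held 52.3, 62.7, 35.8 and 52.9 CPM of Acta2, and the shYap libraries 96.3, 56.4, 9.98 and 80.6 CPM. Tagln was at 39.8, 51.3, 34.1 and 44.1 CPM and at 46.6, 31.6, 11.0 and 61.1 CPM, in the same order. The shYap libraries spread around the shCon range in both genes, with replicate 3 below it and replicate 4 above it. The log2 fold changes were 0.26 ± 0.54 and -0.17 ± 0.43 (edgeR, adjusted p = 0.915 and 0.93), or 0.64 ± 0.23 and 0.16 ± 0.23 without replicate 3. The correlation of the pair was r = 0.97 over these 8 libraries (exact permutation, p = 0.0122, adjusted 0.0244; rho = 0.95, p = 0.00521, adjusted 0.0208; r = 0.91 without the 2 farthest). Their log2 ratio differed by -0.28 between the groups (exact permutation test, p = 0.314; adjusted, 0.381).

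Of 11 other contractile genes 4 were called higher and 1 lower in HFD, where 19.4% of all genes tested were called higher and 21.6% lower, and their median log2 fold change was 0.04. Actg2, the gamma-actin of enteric smooth muscle, rose from 1.97 ± 0.522 to 7.12 ± 1.91 CPM (log2 fold change 1.84 ± 0.24). Cnn1, for calponin, rose by 1.61 ± 0.31 and Myh11, the smooth muscle myosin heavy chain, by 0.79 ± 0.17, both at low levels (2.08 and 9.31 CPM in HFD). Tpm2, a tropomyosin, also rose (0.73 ± 0.18). Cald1, for caldesmon, fell from 534 ± 41.3 to 385 ± 26.5 CPM (log2 fold change -0.47 ± 0.08; SD, n = 5 each; edgeR, adjusted p of these 5 genes, in the order named, 0.000527, 0.00296, 0.00522, 0.0105 and 0.00175). In shYap against shCon none of the 11 passed, and Tpm2 had the lowest p (0.32 ± 0.17, adjusted p = 0.557).

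Pi16, on chromosome 17 from 29317680 to 29330593 (plus strand), encodes a secreted and membrane-anchored protein of the CAP family that marks fibroblasts of the adventitia in many organs. It was at 1.10, 1.5, 1.14, 1.15 and 3.50 CPM in LFD replicates 1 to 5, from 16.0 to 43.0 estimated counts. The HFD libraries held 9.17, 12.3, 18, 21.7 and 15.5 CPM, from 184 to 431 estimated counts. The lowest HFD library was above the highest LFD library, and the log2 fold change was 3.22 ± 0.37 (edgeR, adjusted p = 0.0003). Over all 20 alternative fits and left-out libraries the value stayed between 3.01 and 3.66 with an adjusted p of at most 0.037. Among shCon replicates 1 to 4 it was at 1.70, 3.91, 2.68 and 2.71 CPM, and among shYap at 2.13, 3.03, 3.35 and 2.94 CPM (0.05 ± 0.30, edgeR, adjusted p = 0.97). The shCon and shYap mice were fed the high-fat diet as well, and the level of Pi16 in their table was near that of LFD and not of HFD. Xist was low in both hairpin groups, as in HFD, at 0 to 0.203 CPM. Hepatocyte sums were 10639 to 37001 CPM in shCon and 13303 to 67386 CPM in shYap, nearer those of LFD (10346 to 94018) than of HFD (518 to 4264). These tables were scaled separately, and the difference of Pi16 between them was not tested. Nor was the part of diet, of what sets Xist apart or of hepatocyte RNA in the Pi16 levels.

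The group-centred levels of Dcn and Acta2 had r = -0.05 over the 10 LFD and HFD libraries and -0.85 over the 8 shCon and shYap libraries, the latter with shYap replicate 3 highest in Dcn and lowest in Acta2. The log2 ratio of Acta2 to Dcn differed by -0.67 in HFD against LFD (exact permutation test, p = 0.0873; adjusted, 0.159). Relative to Dcn, Thy1 was lower in HFD, with log2 ratios of -4.97 to -3.15 in LFD and -5.73 to -5.08 in HFD (difference -1.53, exact permutation test, p = 0.00794; adjusted, 0.0265). In shYap against shCon the ratio of Thy1 to Dcn differed by -1.43 (exact permutation test, p = 0.0571; adjusted, 0.143) and that of Acta2 to Dcn by -0.26, which turned to 0.82 without shYap replicate 3. That library held the highest Dcn, Bgn, Fap, Pdgfra, Pdgfrb and Pi16 of its group and the lowest Acta2, Tagln and Thy1. Of the 45 pairs of markers, group-centred, 5 had r above 0.6 in both tables, and 25 had opposite signs in the 2 tables. The 5 were Acta2 with Tagln, Pdgfra with Pdgfrb, Bgn with either receptor, and Fap with Pdgfra. Dcn and Pdgfra, for example, had r = 0.12 in LFD and HFD and 0.99 in shCon and shYap, where both were highest in shYap replicate 3.

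**Figure D5:**
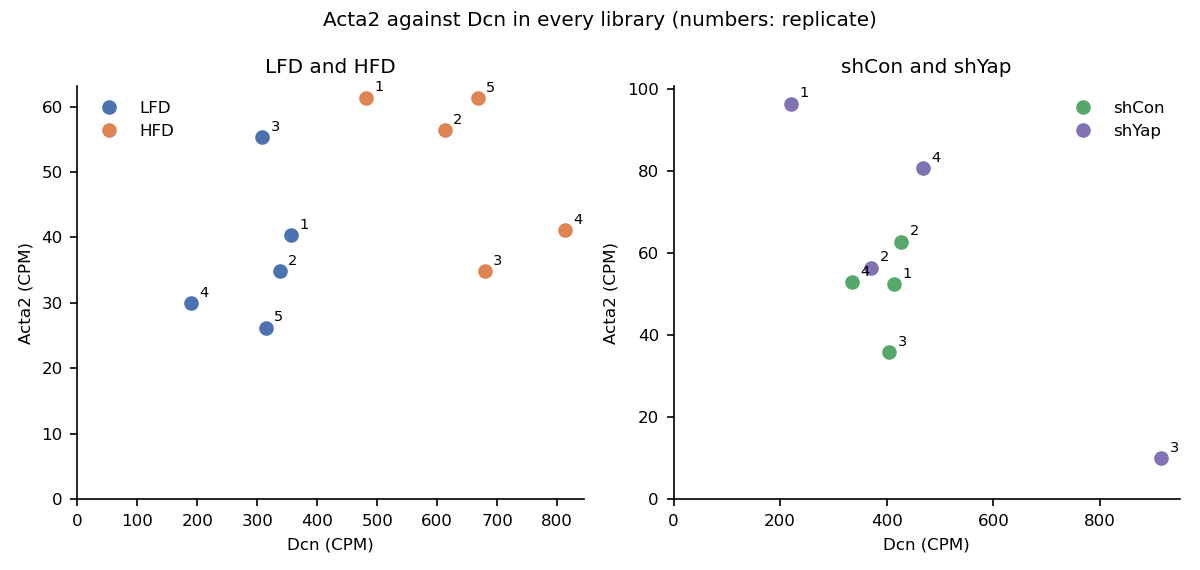
Acta2 (vertical axis, CPM) against Dcn (horizontal axis, CPM) in each library, LFD and HFD on the left and shCon and shYap on the right, with replicate numbers beside the points. Dcn separates HFD (482 to 813 CPM) from LFD (189 to 357 CPM) while Acta2 overlaps, and the shYap libraries run from 221 CPM of Dcn with 96.3 CPM of Acta2 to 915 CPM with 9.98 CPM.

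Genes with the most similar course over libraries were ranked by the lower of their group-centred correlations in the 2 tables, among 11077 genes of at least 5 CPM. Libraries share depth and tissue mix, so these values describe and do not test. Pdgfra was most like Cacna1c, a calcium channel subunit (r = 0.99 over 10 and 0.99 over 8 libraries), Angpt1, an angiopoietin (0.98 and 0.99), and Plat, the tissue plasminogen activator (0.98 and 0.99). For both Acta2 (0.91 and 0.90) and Tagln (0.87 and 0.96) the nearest 3 included Myl9, a myosin light chain of smooth muscle, and Tmem185b (0.89 and 0.97, and 0.90 and 0.90). Thy1 was most like Cd48, a receptor of leukocytes (0.91 and 0.91), and Fap like Zeb1, a repressor of epithelial genes (0.91 and 0.92). The nearest genes of Dcn, Bgn, Lum and Pdgfrb were Nrbp2 (0.91 and 0.92), Ucp2 (0.94 and 0.92), Ogfod2 (0.87 and 0.89) and Nck2 (0.93 and 0.97). Pi16 had the least similar nearest gene, Skiv2l (0.88 and 0.74).

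Among 15 other fibroblast genes 9 rose in HFD and Dpp4 fell (all genes: 19.4% higher, 21.6% lower). Their median log2 fold change was 0.75. No list beyond the markers was read with the hepatocyte covariate, with which 579 of all genes were higher in HFD and 593 lower. Cd34, a sialomucin of adventitial fibroblasts that endothelial and progenitor cells also carry, rose from 133 ± 12.4 to 347 ± 21.4 CPM (1.38 ± 0.08, edgeR, adjusted p = 1.68e-05). Gsn, for gelsolin, rose by 0.89 ± 0.13, Fbn1, for fibrillin, by 0.88 ± 0.15, and Mfap4, a microfibril protein, by 1.35 ± 0.23 (adjusted p = 0.00083, 0.00161 and 0.00178). In the hairpin comparison 0 of the 15 passed in edgeR and 4 had an unadjusted p under 0.05. Dpt, for dermatopontin, was at 14.3 ± 4.39 CPM in shCon and 6.07 ± 1.21 in shYap. Mfap5, for another microfibril protein, was at 0.859 ± 0.98 and 4.10 ± 1.09 CPM, and Pdpn, for podoplanin, at 30.2 ± 4.65 and 47.4 ± 9.04 (SD, n = 4 each; edgeR, adjusted p = 0.158, 0.237 and 0.208).

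Of 13 genes of activated fibroblasts 8 rose in HFD and none was called lower (median 0.92), against 19.4% and 21.6% of all genes. Inhba, a subunit of activin, rose by 1.53 ± 0.18 from 50.4 to 146 CPM, and Cthrc1, a secreted collagen-triple-helix protein, by 3.48 ± 0.62 from 0.345 to 3.60 CPM. Cthrc1 was near the floor in LFD, at 0 to 0.895 CPM. Lrrc15, a surface marker of tumour myofibroblasts, rose by 1.40 ± 0.28 and the matrix protein gene Tnc by 1.38 ± 0.28 (edgeR, adjusted p = 0.000312, 0.00208, 0.00322 and 0.00363). Postn, for periostin, averaged 34.1 ± 4.93 CPM in HFD against 52.3 ± 22.8 in LFD (adjusted p = 0.0879). In shYap against shCon 0 of the 13 passed in edgeR and 3 had an unadjusted p under 0.05, Lrrc15 at -1.50 ± 0.39 (2.06 and 0.726 CPM), Col1a1 at -0.68 ± 0.18 and Inhba at -0.58 ± 0.17 (adjusted p = 0.208, 0.208 and 0.241). Of 6 genes of inflammatory fibroblasts 4 were tested; in HFD Cxcl12, a chemokine, fell (log2 fold change -2.85 ± 0.52) and Has2, a hyaluronan synthase, rose (0.77 ± 0.22; adjusted p = 0.0026 and 0.0183), and in shYap none passed, with Ccl2 lowest in p (-0.54, adjusted p = 0.415).

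Markers of the cells that may become or resemble fibroblasts were read in the same fits, with 19.4% of all genes called higher and 21.6% lower in HFD. The counts below were not tested against these shares. Of 10 stellate cell genes 3 fell in HFD and 1 rose (median -0.99): Ngfr, a nerve growth factor receptor, was at -2.43 ± 0.26, the transcription factor gene Tcf21 at -1.92 ± 0.53, the collectin gene Colec11 at -1.86 ± 0.59, and Ecm1, for a matrix protein, at 0.76 ± 0.19 on the log2 scale (edgeR, adjusted p = 0.000226, 0.0158, 0.0296 and 0.0098). Of 7 pericyte and mural genes tested, Cspg4, for the proteoglycan NG2, rose by 1.91 ± 0.24 and Ndufa4l2 by 0.79 ± 0.19, and the adhesion molecule gene Mcam fell (-0.61 ± 0.16; adjusted p = 0.000387, 0.00799 and 0.0146). None of 4 mesothelial genes passed, Msln, for mesothelin, averaging 221 ± 12.8 CPM in HFD against 124 ± 80.8 in LFD (adjusted p = 0.11). Of 8 endothelial genes 2 fell, Clec4g (-3.99 ± 0.77) and Stab2 (-2.37 ± 0.52), both of liver sinusoids (adjusted p = 0.00323 and 0.00612). In shYap against shCon 0 genes of these 4 lists passed in edgeR. The lowest p there was that of Msln, at 133 ± 14.4 CPM in shCon and 261 ± 86.8 in shYap (SD, n = 4 each; 0.97 ± 0.23, adjusted p = 0.178). Summed levels of the stellate list were 174 to 297 CPM in LFD and 285 to 365 CPM in HFD, of the mural list 89.2 to 113 and 61.7 to 89.0 CPM, and of the mesothelial list 60.4 to 251 and 207 to 239 CPM. The stellate sum and the stellate median differ in direction, Ecm1 alone averaging 160 CPM of the sum in LFD and 270 CPM in HFD. Of the epithelial and macrophage lists, 1 of 5 genes tested (Cdh1, lower) and 0 of 5 were called in HFD, and 0 and 0 in shYap. The part of these cells in the differences of the 10 markers was not tested.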

How the data were processed

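RNA sequencing of 18 libraries was deposited by the authors as estimated counts per gene in 2 tables (59.7% and 61.8% of values whole), here rounded. STAR 2.7.3a, Partek, DESeq2, GRCm38 and mm10 are named per the submitters' processing notes; annotation and strand are not given in the sources used here. Positions and exon lengths are from GENCODE M21, promoter sites from RefSeq (GRCm38.p6).

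Each table was fitted whole, with no covariate, in edgeR 4.0.16 under R 4.3.3: filterByExpr, TMM, robust quasi-likelihood F test, Benjamini-Hochberg adjusted p under 0.05. The code was tested on simulated data. SE is the log2 fold change over the square root of F. CPM use TMM-scaled library sizes. Correlations use log2 CPM (prior count 2) centred by group. Exact permutation tests used SciPy 1.17.1. Alternatives were DESeq2 1.42.0, limma voom (3.58.1), RLE or upper-quartile factors, no filter or 1 CPM, a replicate block, a hepatocyte or T cell covariate, the closest HFD libraries summed, a pseudocount of 2 CPM for ratios, and each library left out.

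The markers, lists and tests were chosen with earlier results of these data known. Named were all markers, Cd3e, Yap1, up to 4 genes of each list by p in either comparison, and the genes most like a marker (not all of these are printed). Xist, Gm48529, Dpp4 and Postn were chosen after their values were seen.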

Additional observations from a re-analysis of the deposited data

Results flagged for a closer look

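Of the 40 sets of marker values (10 genes in 4 groups), 3 held a library far from the others of its group by Dixon's test at 95%, which chance flags in about 1 of 20 groups. Fap was lowest in LFD replicate 5, at 1.30 CPM against 4.19 to 5.29 CPM in the other LFD libraries. Pi16 was highest in the same library, at 3.50 CPM against 1.10 to 1.5 CPM. Pdgfra was lowest in shCon replicate 4, at 155 CPM against 186 to 192 CPM. LFD replicate 5 also held the highest hepatocyte sum of its group, 94018 CPM, and shCon replicate 4 the highest of its own, 37001 CPM, and the part of this in these values was not tested.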

How the results depend on the processing

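Pi16 was called higher in HFD in all 20 alternatives run, and Dcn, Bgn and Pdgfrb in all 10 fits with a library left out. With the hepatocyte covariate 579 genes were higher and 593 lower in HFD, and 1 marker (Pi16) was higher, while the log2 fold changes of Bgn, Pdgfra and Tagln turned to -0.03, -0.60 and 0.24. With the T cell covariate 1516 genes were higher and 2171 lower, and Fap and Thy1 turned to 0.39 and 0.45. With the closest HFD libraries summed 2056 genes were higher and 2177 lower. The cause of these shifts was not tested, and both covariates differ between the groups. Leaving out a library gave 0 to 2 markers lower in HFD (2 without LFD replicate 5) and a log2 fold change of -0.10 to 0.20 for Pdgfra. The 3 ratios called in the diet comparison kept their sign in each fit with a library left out, with an adjusted p of 0.0397 without LFD replicate 5 and 0.0529 otherwise, since fewer libraries raise the smallest exact p to 0.0159.

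For shYap against shCon DESeq2 called 123 genes higher and 282 lower, with 3 markers lower. The hepatocyte covariate gave 1 gene lower and turned Acta2 to -0.14. Signs turned with limma voom (Fap -0.26, Acta2 -0.12) and upper-quartile factors (Fap -0.01). With the T cell covariate Pdgfrb went from -1.05 to 0.01 and Pdgfra from -0.45 to 0.14, and Fap and Tagln turned to -0.44 and 0.11; the cause was not tested. Further, the log2 ratio of Thy1 to Cd3e was -0.09 with a pseudocount of 2 CPM. Leaving out a library gave 0 to 17 genes higher, 0 to 77 lower and 0 to 1 marker lower, the highest of each without shCon replicate 4. Log2 fold changes then ranged from -0.14 to 0.57 for Dcn, -0.64 to 0.30 for Fap, -0.05 to 0.64 for Acta2, -0.50 to 0.16 for Tagln and -0.12 to 0.29 for Pi16. The log2 ratio of Acta2 to Dcn ranged from -0.93 to 0.82. Leaving out shYap replicate 3 gave the ends at -0.14, -0.64, 0.64, 0.16 and 0.82, and other libraries gave the rest. Whether replicate numbers pair the libraries cannot be told from the correlations of same-numbered deviations, which were not set against those of other numbers. These ran from -0.50 to 0.31 in the diet table and from -0.05 to 0.18 in the hairpin table. With the replicate block 2376 genes were higher and 2553 lower in HFD, 4 markers higher, and 0 in shYap, where Fap and Acta2 turned to -0.21 and -0.08. The counts of 16.0 to 102 limit the precision for Fap and Pi16 in LFD.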
